A study of Mus musculus with 23 samples.

Results

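Set, Anp32a, Anp32b, Anp32e, Nap1l1 and Nap1l4 encode histone chaperones with strongly acidic stretches, and their transcripts were followed in mouse embryonic stem cells (ESCs) with a SET knockout, after retinoic acid, or with an inducible SETa transgene. The 6 genes were taken by symbol, through their Ensembl identifiers, out of 55573 genes in the count tables. All 6 passed the low-count filter in every comparison. Transcript 3′ ends were counted by QuantSeq, a tag method, so a value is a level of 3′ tags and carries no information on an edited coding exon. R1, a mouse ESC line, was sampled in 2 separately titled sets. Each set held 4 SET-/- (KO) samples, 2 of line KO1 and 2 of line KO2, and 2 wild-type (WT) samples. In the second set, 2 further KO samples, both titled KO1, and 1 WT sample had received retinoic acid (RA) for 4 d. KH2 ESCs carrying an HA-tagged SETa transgene under doxycycline (Dox) control gave 2 samples with 1 μg/mL Dox for 24 h and 2 without it, so the transgene was present in both KH2 groups. R1 and KH2 cells were kept on fibroblast feeders with serum and LIF. No source used here gives the culture conditions during RA, the edit that made the KO lines, or whether each line is 1 clone.

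The 19 samples held 806412 to 1445013 counts in set 1 and 2833064 to 10217040 counts elsewhere. Levels are given as CPM, the counts scaled to a common library total, after TMM scaling, with the SD over samples, and a change was called at an adjusted p under 0.05. Nothing states that replicates were separate cultures, so every p-value measures a spread between samples that may be purely technical. All 12 ESC markers followed here had counts in every group. Their summed level was 2145 to 2607 CPM in set 1 KO against 4332 to 4852 in set 1 WT, and 2262 to 2749 CPM in set 2 KO against 3598 to 4060 in set 2 WT. Over 17 feeder fibroblast markers the sum was 254 to 425 CPM in set 1 KO against 28.1 to 46.8 in set 1 WT. Postn, Lum and Dcn were at 0 in set 1 WT. In set 2 the sum was 399.8 to 648 CPM in KO against 301 to 366 in WT. Tagln (118 CPM) and Acta2 (103 CPM) had the highest means of these markers in set 1 KO, against 4.88 and 3.66 CPM in WT. Thy1 averaged 7.05 CPM in set 1 KO against 6.11 in WT, and Lum was at 0 in both. Acta2 was highest in set 2, at 233 CPM in KO against 159 in WT. In these bulk samples a smaller share of cells of a type and less RNA per cell cannot be told apart, and the part of these shifts in the KO results below was not tested.

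Histone chaperones escort the basic histone proteins and hand them to or take them from DNA. SET and the NAP1 proteins share a fold that binds histones and end in an acidic tail. ANP32 proteins combine leucine-rich repeats with a long acidic tail. SET, also known as TAF-I and as an inhibitor of the phosphatase PP2A, forms a complex with ANP32A that masks histone tails from acetyltransferases. ANP32B is a histone chaperone, ANP32E removes the variant histone H2A.Z from chromatin, and NAP1L1 and NAP1L4 carry H2A with H2B.

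The acidic stretch that the 6 proteins share appears in their coding sequence as runs of acidic codons, those for aspartate and glutamate. The sequences below, from the GENCODE M21 transcripts of GRCm38, are the 30 codons of each gene with the most acidic codons, read 5′ to 3′ on the coding strand with the acidic codons in capitals. The window lies in 1 exon in Set and crosses an intron in the other genes.
Set (chr2:30070474-30070563, plus strand, codons 245 to 274 of 289): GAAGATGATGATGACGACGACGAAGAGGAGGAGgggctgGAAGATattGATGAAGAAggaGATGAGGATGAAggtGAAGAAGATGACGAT
Anp32a (chr9:62373650-62374715, plus strand, codons 165 to 194 of 247): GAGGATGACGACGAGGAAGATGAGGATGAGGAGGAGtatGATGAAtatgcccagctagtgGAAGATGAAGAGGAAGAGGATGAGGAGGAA
Anp32b (chr4:46468772-46469956, plus strand, codons 181 to 210 of 272): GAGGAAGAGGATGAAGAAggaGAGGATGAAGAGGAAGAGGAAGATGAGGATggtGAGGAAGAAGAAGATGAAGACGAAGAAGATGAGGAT
Anp32e (chr3:95937141-95937916, plus strand, codons 149 to 178 of 260): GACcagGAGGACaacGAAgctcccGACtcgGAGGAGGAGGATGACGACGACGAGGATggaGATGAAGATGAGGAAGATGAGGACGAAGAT
Nap1l1 (chr10:111494267-111495357, plus strand, codons 345 to 374 of 391): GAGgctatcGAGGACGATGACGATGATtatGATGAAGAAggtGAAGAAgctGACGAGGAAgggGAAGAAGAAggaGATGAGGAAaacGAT
Nap1l4 (chr7:143520396-143524175, minus strand, codons 341 to 370 of 375): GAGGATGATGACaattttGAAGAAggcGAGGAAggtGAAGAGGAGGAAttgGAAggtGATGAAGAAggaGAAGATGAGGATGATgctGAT
Of 30 codons, 25 were acidic in Set, 24 in Anp32a, 28 in Anp32b, 24 in Anp32e, 22 in Nap1l1 and 22 in Nap1l4. The median over 21737 protein-coding genes was 8, and only 0.253% of genes had a window as acidic as that of Set. That share was 0.354% for Anp32a and Anp32e, 0.11% for Anp32b and 0.584% for Nap1l1 and Nap1l4. The windows sit near the end of the coding sequence in Set, Nap1l1 and Nap1l4, with 15, 17 and 5 codons left after them, and farther from the end in Anp32a, Anp32b and Anp32e, with 53, 62 and 82.

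The first question is how far Set itself and its relatives differ between KO and WT cells. Set and Anp32a fell in KO cells over both sets, and the other 4 genes passed the test in neither direction. Over both sets edgeR's quasi-likelihood test called 2 of the 6 genes, both lower. Among all 11515 genes tested, 19.1% were called in either direction and 8.63% lower. Set is the gene knocked out, so its call does not count as a response of the family. Anp32a was the only relative called. The median log2 fold change was -0.06 over the 6 genes and -0.02 over all genes tested. Within set 1 edgeR called Set alone, which was lower (5.10% of genes called lower and 12.3% in either direction). Within set 2 it called Set and Anp32a, both lower (3.55% of genes called lower and 9.19% in either direction).

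Set (ENSMUSG00000054766, GRCm38 chr2:30057378-30072577, plus strand) stood at 21.4 and 20.02 CPM in set 1 KO1 and 16.8 and 25.6 CPM in set 1 KO2, against 943 and 979 CPM in set 1 WT. All 4 KO samples lay far under both WT samples, at 2.18% ± 0.379 of the WT mean (SD, n = 4). In set 2 the KO1 samples held 513 and 569 CPM and the KO2 samples 394 and 273 CPM, against 1198 and 1454 CPM in WT. These KO samples also stayed under both WT samples, yet at 33.0% ± 9.93 of the WT mean (SD, n = 4), with a range of 20.6% to 42.9%. The log2 fold change was -5.50 in set 1 (SE 0.17, edgeR adjusted p = 3.91e-12) and -1.56 in set 2 (SE 0.26, edgeR adjusted p = 0.0135). The difference between the sets, 3.94 (SE 0.33), passed its own test (edgeR adjusted p = 2.48e-06), in which 0.828% of 11950 genes were called and Set was the only one of the 6. The set 2 call was lost without WT sample 2a (edgeR adjusted p = 0.0752) or without WT sample 2b (0.108), and the call over both sets, at -3.46 (SE 0.67, adjusted p = 0.00642), was lost when counts were summed to 1 sample per line and set (edgeR adjusted p = 0.184).

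**Figure D1:**
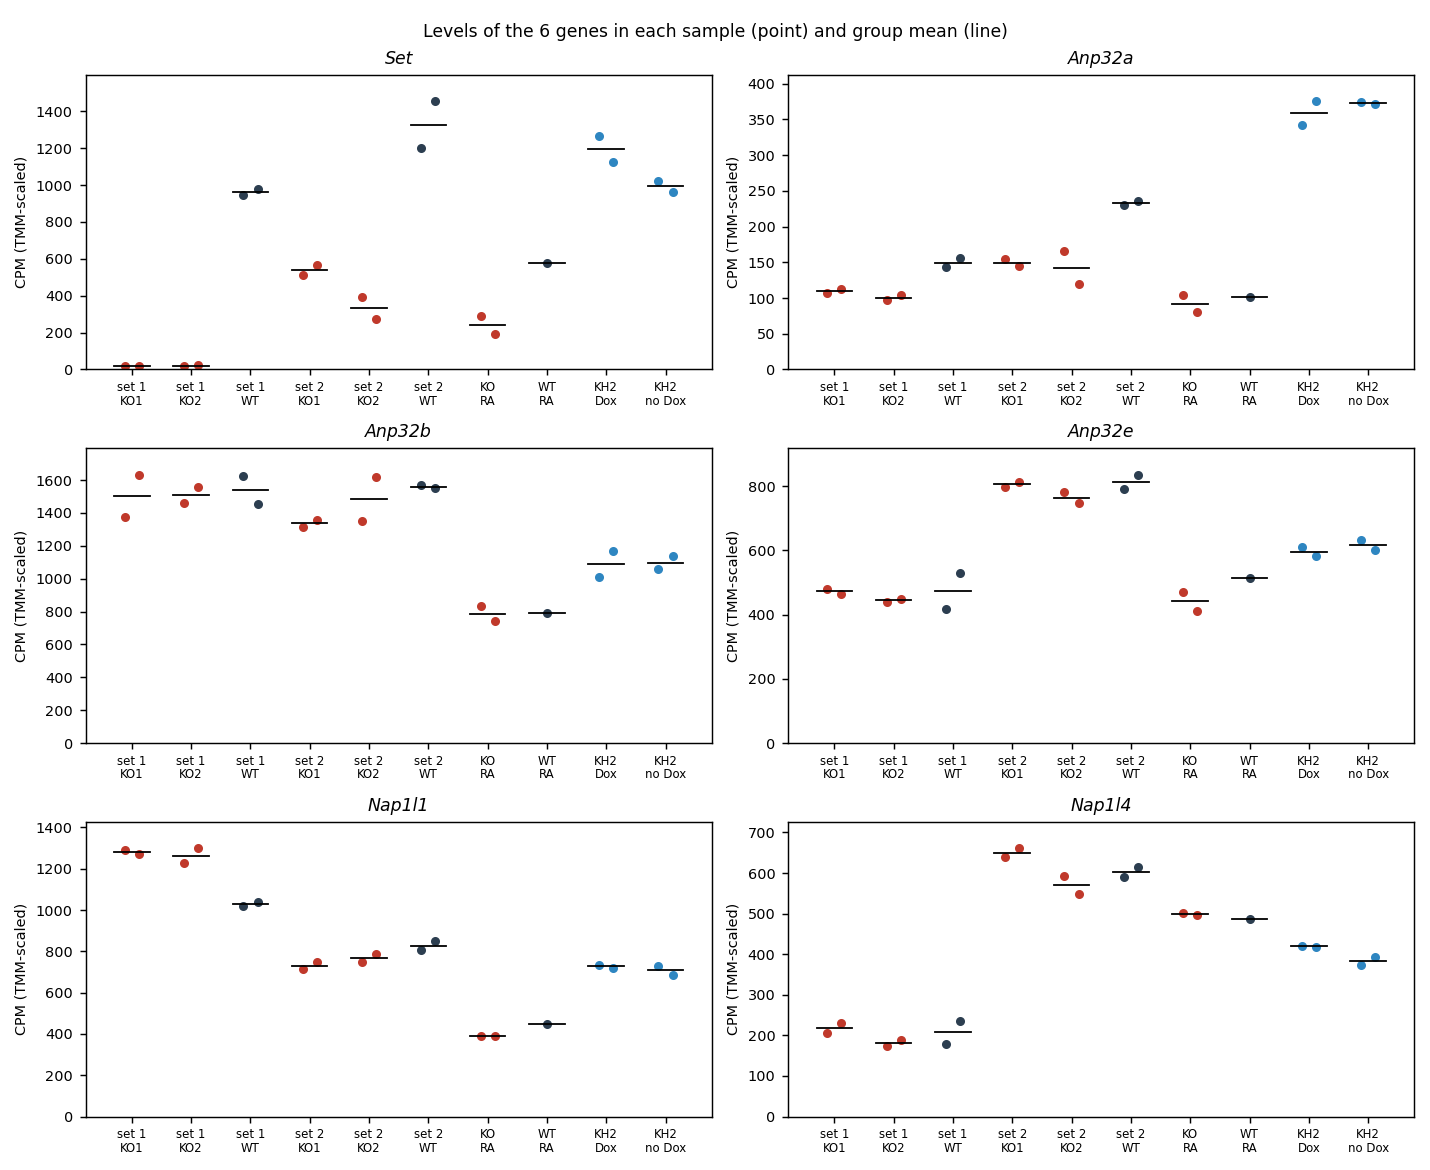
Levels of the 6 genes in each sample (points, CPM after TMM scaling, linear axes from 0) with the group mean (line), KO in red, WT in dark grey and KH2 in blue. Set lies between 16.8 and 25.6 CPM in set 1 KO and between 273 and 569 CPM in set 2 KO, and Anp32a is lower in all 8 untreated KO samples than in either WT sample of the same set.

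Between the KO lines of set 2, KO2 averaged 334 ± 86.0 CPM of Set and KO1 541 ± 39.8 CPM (SD, n = 2 each). The KO2 over KO1 difference was -0.69 on the log2 scale (SE 0.15, 95% interval -0.98 to -0.40) and did not pass after adjustment (edgeR unadjusted p = 0.000151, adjusted p = 0.384). Only 0.0237% of 12681 genes were called in this comparison. It was called without the low-count filter (edgeR adjusted p = 0.000354) and without KO2 sample 2e (0.00601), where the difference was -0.98. In set 1, KO2 averaged 21.2 ± 6.21 CPM and KO1 20.7 ± 1.01 CPM (SD, n = 2 each), with overlapping samples and 0.0102% of 9764 genes called. None of the 6 genes was called between the lines in either set. At an unadjusted edgeR p under 0.05 the count was 0 of 6 in set 1 and 1 of 6, Set, in set 2, and the DESeq2 Wald test also called none.

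Anp32a (ENSMUSG00000032249, chr9:62341293-62378812, plus strand), the partner of SET in the histone-masking complex, held 107 and 113 CPM in set 1 KO1 and 96.9 and 104 CPM in KO2, against 144 and 155 CPM in WT. In set 2 it held 154 and 145 CPM in KO1 and 165 and 119.8 CPM in KO2, against 229.9 and 236 CPM in WT. Every untreated KO sample was under both WT samples of its set. As a share of the WT mean the KO level was 70.4% ± 4.48 in set 1 and 62.7% ± 8.35 in set 2 (SD, n = 4 each). The log2 fold change over both sets was -0.59 (SE 0.10, 95% interval -0.78 to -0.39, edgeR adjusted p = 0.000178), and each of 17 alternative fits kept the call. In set 1 alone it was -0.50 (SE 0.16, edgeR adjusted p = 0.0543), which missed the threshold except without KO1 sample 1d (0.0317), and in set 2 alone -0.63 (SE 0.12, edgeR adjusted p = 0.00162). The set 2 minus set 1 difference was -0.14 (95% interval -0.54 to 0.26, edgeR adjusted p = 0.853).

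Anp32b (ENSMUSG00000028333, chr4:46450902-46472657, plus strand) averaged 1506 ± 113 CPM in set 1 KO (n = 4) and 1539.6 ± 122 CPM in WT (n = 2), and 1410.1 ± 141 CPM in set 2 KO and 1559.9 ± 15.4 CPM in WT (SD). KO and WT samples overlapped in both sets, in set 2 through KO2 sample 2f (1620 CPM) alone, the other KO samples being at 1315 to 1357 CPM. Anp32e (ENSMUSG00000015749, chr3:95929246-95947390, plus strand) averaged 458 ± 17.9 CPM in set 1 KO and 473 ± 80.4 CPM in WT, and 784 ± 28.8 CPM in set 2 KO and 813 ± 30.3 CPM in WT. Its samples overlapped as well. Over both sets the log2 fold change of Anp32b was -0.08 (95% interval -0.25 to 0.09) and that of Anp32e -0.04 (-0.21 to 0.13), intervals that leave out a change as large as that of Anp32a's estimate.

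Nap1l1 (ENSMUSG00000058799, chr10:111473223-111498150, plus strand) had a KO mean above that of WT in set 1 and below it in set 2. In set 1 it held 1293 and 1272 CPM in KO1 and 1229 and 1299 CPM in KO2, against 1020.1 and 1038 CPM in WT, so all KO samples were above both WT samples. In set 2 it held 716 and 747 CPM in KO1 and 749.8 and 787 CPM in KO2, against 806 and 849 CPM in WT, so all KO samples were below both WT samples. Before libraries of the same title code were summed, KO and WT of set 2 overlapped, KO reaching 799 CPM and WT going down to 730 CPM. Neither difference passed the test, at a log2 fold change of 0.31 in set 1 (SE 0.13, edgeR adjusted p = 0.132) and -0.10 in set 2 (SE 0.10, edgeR adjusted p = 0.563). The difference between the sets was -0.42 (SE 0.16, unadjusted p = 0.0149, edgeR adjusted p = 0.309), and the DESeq2 Wald test called it (adjusted p = 0.0343).

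Nap1l4 (ENSMUSG00000059119, chr7:143513579-143549106, minus strand) averaged 199.7 ± 23.8 CPM in set 1 KO and 207 ± 38.8 CPM in WT, and 609.9 ± 50.03 CPM in set 2 KO and 603 ± 16.8 CPM in WT. The samples overlapped in both sets, and the log2 fold change over both was -0.0045 (SE 0.10, 95% interval -0.20 to 0.19). Its KO level was 96.3% ± 11.5 of the WT mean in set 1 and 101% ± 8.30 in set 2 (SD, n = 4 each).

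**Figure D2:**
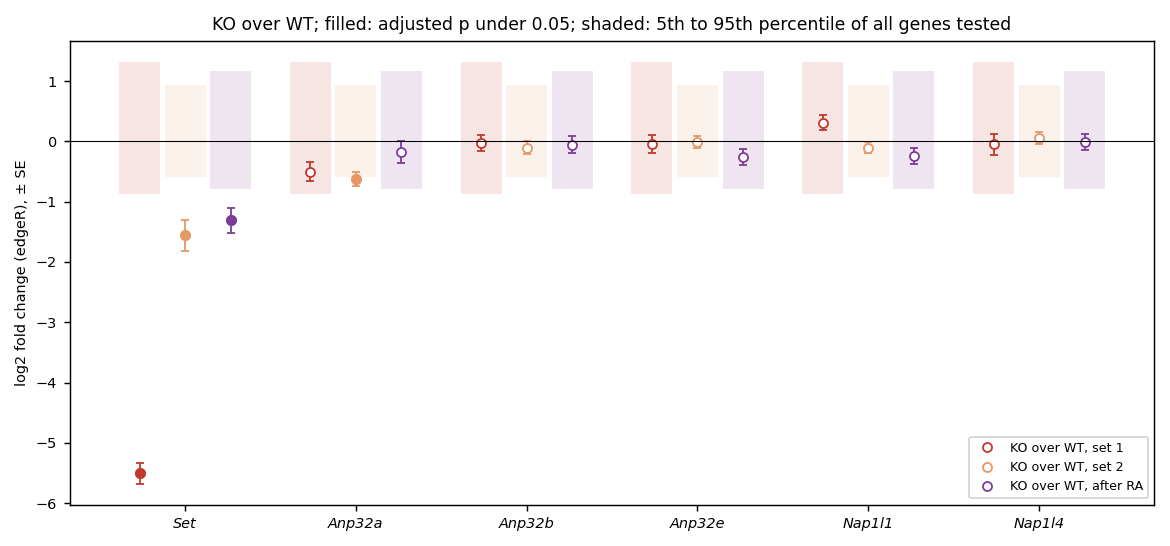
Log2 fold change of KO over WT (points, ± SE, edgeR) for the 6 genes in set 1, in set 2 and after RA, with filled points at an adjusted p under 0.05 and shading from the 5th to the 95th percentile of all genes tested. Set lies below the shading in all 3 comparisons, at -5.50, -1.56 and -1.31, and Anp32a is the only other gene with a filled point, in set 2.

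Untreated set 2 libraries were divided into 2 sub-batches, A and B, by their scores on the leading principal component. That component took 33.8% of the variance left within groups. The cut was placed where neighbouring scores lay farthest apart (18.5), and such a cut gives 2 parts with any data. No title names the sub-batches. They were derived from the same counts that are tested below, which can narrow the spread within groups. The p-values within A, within B and with the covariate may therefore be too small. Within A, Set was at 561 CPM in KO1 and 272 and 272 CPM in KO2, against 1084 and 1382 CPM in WT. Within B, it was at 508 and 556 CPM in KO1 and 429 CPM in KO2, against 1234 and 1479 CPM in WT. For Set the log2 fold change was -1.72 within A (edgeR adjusted p = 0.0836) and -1.47 within B (edgeR adjusted p = 2.18e-19). That of Anp32a was -0.75 within A (edgeR adjusted p = 0.0556) and -0.49 within B (edgeR adjusted p = 0.000164). Both genes were lower in KO within each sub-batch and called within B only, with 5 libraries in each. With sub-batch as a covariate, an alternative chosen after seeing the data, both were called, Set at -1.59 (edgeR adjusted p = 0.00226) and Anp32a at -0.62 (0.000625). With the first library of each title code only, also chosen after seeing the data, the Anp32a call was lost (edgeR adjusted p = 0.0512164).

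Set has near-identical copies elsewhere in the genome, and reads that map to several places are not counted under the counter's default. At an identity of at least 95% over at least 75 bases, 6 annotated copies of Set were found, against 1 each for Anp32a, Anp32b and Nap1l1 and 0 for Anp32e and Nap1l4. These copies were searched for by sequence after the members' values had been seen. None of the Set copies matched the last 400 bases of a Set transcript, and the copy of Nap1l1, Gm4204, did match such an end, so the values of Nap1l1 are uncertain to that extent. Over all samples the copies held 7.81% as many counts as Set, 1.21% for Nap1l1, 0.47% for Anp32a and 0.00811% for Anp32b.

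Gm9531 (chr9:81677598-81678677, plus strand), whose sequence is identical to Set over 775 aligned bases, moved with Set across the KO groups. It held 1.07 and 1.94 CPM in set 1 KO1 and 2.40 and 0 CPM in KO2, against 75.9 and 36.4 CPM in WT. In set 2 it held 19.005 and 16.5 CPM in KO1 and 12.5 and 12.6 CPM in KO2, against 94.3 and 88.9 CPM in WT. All KO samples were below both WT samples of their set. The log2 fold change was -5.32 in set 1 (SE 0.50, edgeR adjusted p = 7.74e-06) and -2.57 in set 2 (SE 0.16, edgeR adjusted p = 1.72e-08), and the difference of 2.81 between sets was called (edgeR adjusted p = 0.0169). That last call was lost without WT sample 1a (edgeR adjusted p = 0.139), WT sample 2b (0.0783) or KO1 sample 2d (0.0510). In set 1 the 4 KO samples together held 7 counts of Gm9531, so its levels there rest on few reads. Adding the counts of all 6 copies to Set gave 19.2 to 25.6 CPM in set 1 KO against 1019.7 and 1020.1 CPM in WT, and 286 to 589 CPM in set 2 KO against 1296 and 1547 CPM in WT. KO and WT samples did not overlap with the copies added, in either set.

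**Figure D3:**
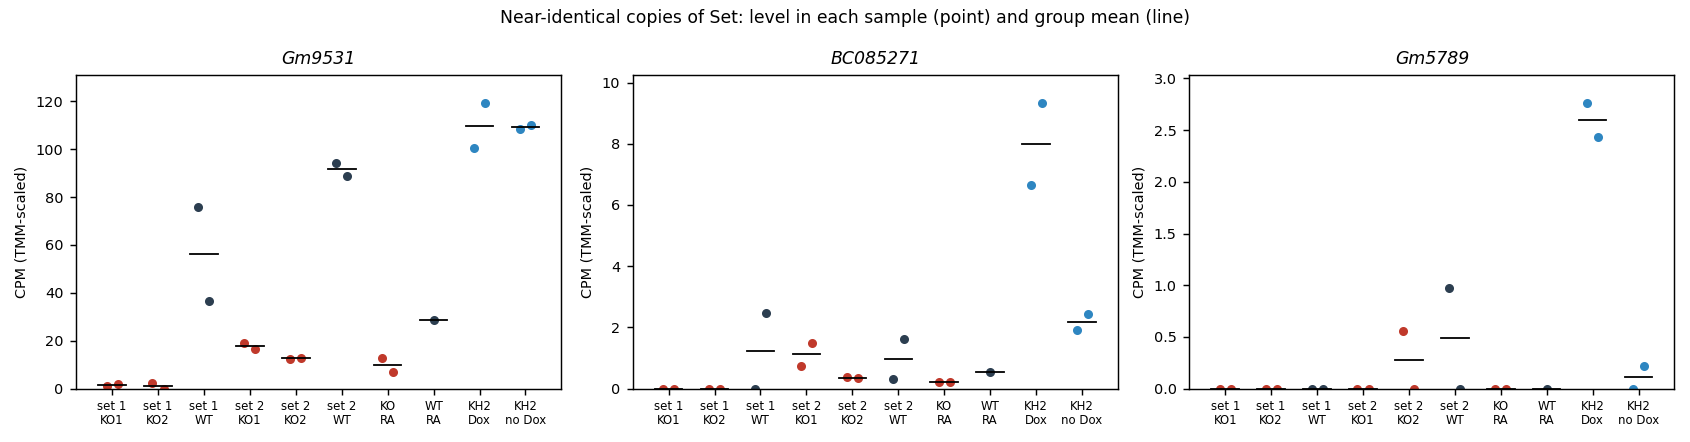
Levels of 3 near-identical copies of Set in each sample (points, CPM after TMM scaling, linear axes from 0 that differ between panels) with group means (lines). Gm9531 is at 0 to 2.40 CPM in set 1 KO and 12.5 to 19.005 CPM in set 2 KO, under all WT samples, while BC085271 and Gm5789 are highest in KH2 cells with Dox.

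RA drives ESCs to differentiate, and all 6 genes fell after it in both genotypes. In KO cells edgeR called 6 of 6 lower, beside 26.8% of 14659 genes called lower and 55.1% called in either direction. In WT cells it called 6 of 6 lower, beside 22.5% called lower and 47.3% in either direction. The median log2 fold change of the 6 was -0.94 in KO and -0.97 in WT, while the median of all genes tested was -0.0088 in KO and -0.03 in WT. The WT comparison rests on 1 RA sample, whose spread was taken to equal that of the other groups. ESC marker sums were 469 to 479 CPM in KO after RA and 379.5 CPM in WT after RA. Feeder fibroblast marker sums were 5512 to 6269 CPM in KO after RA and 5732 CPM in WT after RA, against at most 648 CPM in untreated cells of set 2. Acta2 alone held 4558 CPM in KO after RA and 4502 CPM in WT after RA, so it made up most of these sums. Of 16 markers tested, 14 rose and 0 fell with RA in each genotype, Thy1 and S100a4 being the markers not called, and Lum was at 0 in WT after RA. The part of these shifts in the RA results was not tested.

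Set held 288 and 194 CPM in KO cells after RA, against 273 to 569 CPM in untreated KO cells, and 579.9 CPM in WT cells after RA, against 1198 and 1454 CPM in untreated WT cells. Both KO samples after RA are titled KO1 and lay under the untreated KO1 samples (513 and 569 CPM). The higher of them was above the lowest untreated KO2 sample (273 CPM). The WT sample after RA lay under both untreated WT samples. The untreated KO level fitted below is the mean of lines KO1 and KO2. With KO1 alone, the RA effect in KO minus that in WT was -0.049 on the log2 scale, against 0.30 with that mean. With RA the log2 fold change was -0.93 in KO (SE 0.16, edgeR adjusted p = 7.89e-05) and -1.23 in WT (SE 0.22, edgeR adjusted p = 0.000190). The RA effect in KO minus that in WT was 0.30 (95% interval -0.21 to 0.81, edgeR adjusted p = 0.758), so a difference between the genotypes was not shown.

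Anp32a held 104 and 80.4 CPM in KO cells after RA, against 119.8 to 165 CPM in untreated KO cells, and 102 CPM in WT cells after RA, against 229.9 and 236 CPM in untreated WT cells. The gap between KO and WT cells seen before RA was not resolved after it, with KO samples on either side of the WT sample. With RA the log2 fold change was -0.77 in KO (SE 0.13, edgeR adjusted p = 1.12e-05) and -1.24 in WT (SE 0.18, edgeR adjusted p = 3.29e-06). The difference of these effects, 0.46 (SE 0.22, 95% interval 0.03 to 0.89), had an unadjusted p of 0.0446 and was not called (edgeR adjusted p = 0.447). In this comparison 1.09% of genes were called and none of the 6, with 1 of 6 at an unadjusted edgeR p under 0.05 and none by the DESeq2 Wald test.

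Anp32b held 832 and 741 CPM in KO cells after RA, against 1315 to 1620.4 CPM in untreated KO cells, and 793 CPM in WT cells after RA, against 1571 and 1549 CPM in untreated WT cells. Anp32e held 469.9 and 412 CPM in KO cells after RA, against 746 to 813 CPM in untreated KO cells, and 514 CPM in WT cells after RA, against 792 and 835 CPM in untreated WT cells. RA samples of both genes lay under all untreated samples of their genotype. For Anp32b the log2 fold change was -0.95 in KO and -1.02 in WT, and that of Anp32e -0.94 in KO and -0.70 in WT (edgeR adjusted p at most 0.000148).

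Nap1l1 held 388 and 391 CPM in KO cells after RA, against 716 to 787 CPM in untreated KO cells, and 449 CPM in WT cells after RA, against 806 and 849 CPM in untreated WT cells. Its log2 fold change was -1.05 in KO (SE 0.10, edgeR adjusted p = 6.95e-10) and -0.92 in WT (SE 0.14, edgeR adjusted p = 3.65e-06). Nap1l4 held 502 and 497 CPM in KO cells after RA, against 549 to 661 CPM in untreated KO cells, and 488 CPM in WT cells after RA, against 591 and 615 CPM in untreated WT cells. It moved least of the 6, by -0.40 in KO (SE 0.10, edgeR adjusted p = 0.000953) and -0.35 in WT (SE 0.14, edgeR adjusted p = 0.0369). The WT call for Nap1l4 was kept in 6 of 12 alternative fits, with adjusted p from 0.0169 to 0.111, and was lost without WT sample 2a (edgeR adjusted p = 0.111), WT sample 2b (0.105), KO RA sample 2h (0.0613) or KO RA sample 2i (0.0608). The other 5 genes kept their RA calls in every alternative fit run, in KO and in WT.

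**Figure D4:**
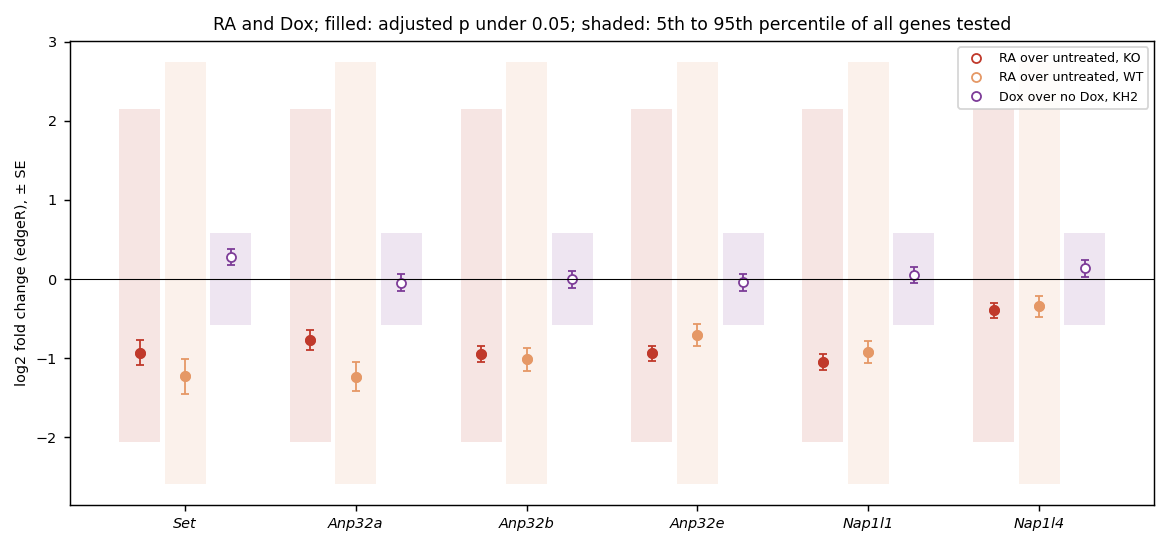
Log2 fold change (points, ± SE, edgeR) of RA over untreated cells in KO and in WT and of Dox over no Dox in KH2 cells for the 6 genes, with filled points at an adjusted p under 0.05 and shading from the 5th to the 95th percentile of all genes tested. All RA points are below 0 and filled, from -1.24 to -0.35, within the shading, and no Dox point is filled.

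After RA, KO cells were compared with WT cells directly. Set was the only one of the 6 that passed, at -1.31 on the log2 scale (SE 0.20, edgeR adjusted p = 0.00518), in a comparison with 0.396% of genes called and 0.109% called lower. With every library as its own sample that call was lost (edgeR adjusted p = 0.0542). Gm9531 was also lower, at 12.9 and 7.05 CPM in KO against 28.8 CPM in WT (log2 -1.56, edgeR adjusted p = 0.00441). That copy's call was lost without KO sample 2i (edgeR adjusted p = 0.170) and with every library as its own sample (0.237). For the other 5 genes the log2 difference ran from -0.26 to -0.0074. The lowest belonged to Anp32e, whose 95% interval was -0.53 to 0.0022.

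Promoter sequences from RefSeq (GRCm38.p6, 250 bases before to 50 after a start) were found for 5 of the 6 genes, with 2 starts for Set. They were searched on both strands for CCAAT, letters bound by NF-Y, for GGGCGG, letters bound by SP1, and for the E2F letters TTTNNCGC. CCAAT was found in each of the 6 promoters, against 37.4% of 32851 promoters of that length. GGGCGG was found in both Set promoters and in those of Anp32a and Anp32b, against 35.7%, and TTTNNCGC in that of Nap1l1 alone, against 5.17%. The promoters with the most CCAAT letters are shown, 3 in Anp32a, the relative that fell in KO and after RA, and 4 in Anp32e, which fell after RA only. Capitals mark CCAAT or its reverse ATTGG, and the 1 GGGCGG of Anp32a as its reverse CCGCCC. No marked motif overlaps another in these windows.
Anp32a (chr9:62341093-62341392, plus strand): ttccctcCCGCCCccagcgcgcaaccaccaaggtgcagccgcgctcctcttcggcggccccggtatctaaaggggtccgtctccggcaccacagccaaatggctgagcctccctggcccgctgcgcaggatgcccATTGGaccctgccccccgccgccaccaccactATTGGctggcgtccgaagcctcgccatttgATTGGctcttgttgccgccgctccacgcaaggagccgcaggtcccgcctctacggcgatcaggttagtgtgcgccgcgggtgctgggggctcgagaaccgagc
Anp32e (chr3:95929007-95929306, plus strand): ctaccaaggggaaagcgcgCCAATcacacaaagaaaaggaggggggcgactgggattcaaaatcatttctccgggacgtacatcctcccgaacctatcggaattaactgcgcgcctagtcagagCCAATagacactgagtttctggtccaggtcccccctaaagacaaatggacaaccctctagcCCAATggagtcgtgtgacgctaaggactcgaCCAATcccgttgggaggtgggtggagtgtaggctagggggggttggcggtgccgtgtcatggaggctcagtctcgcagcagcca
These matches describe letters in the windows and were not linked to any factor or level.

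KH2 cells with Dox were compared with KH2 cells without it. No cells lacking the transgene received Dox, so effects of Dox itself and of induced SETa cannot be told apart in any Dox result here. Set held 1267 and 1126 CPM with Dox, against 1020.5 and 964 CPM without it. Both Dox samples were above both samples without Dox. The log2 difference was 0.28 (SE 0.10, 95% interval 0.07 to 0.48) and did not pass (unadjusted p = 0.0126, edgeR adjusted p = 0.175), nor did any other of the 6, while 1.80% of 12723 genes were called, 0.896% higher and 0.904% lower. At an unadjusted edgeR p under 0.05 the count was 1 of 6, and the DESeq2 Wald test called none. No source used here says whether the transgene carries the 3′ end of Set, and so whether its transcript is counted there. The 2 coding transcripts of Set in the annotation, of 289 and 277 codons, share their last 2398 bases, so 3′ tags do not separate them.

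Anp32a averaged 359 ± 22.9 CPM with Dox and 373 ± 2.63 CPM without, and Anp32b 1088 ± 114 CPM with Dox and 1096 ± 55.6 CPM without (SD, n = 2 each). Anp32e averaged 596 ± 21.3 CPM with Dox and 617 ± 23.4 CPM without. Nap1l1 averaged 728 ± 11.2 CPM with Dox and 708 ± 30.9 CPM without, and Nap1l4 419 ± 1.18 CPM with Dox and 384 ± 13.2 CPM without. Samples overlapped except those of Nap1l4, whose Dox samples were both higher (log2 0.13, 95% interval -0.07 to 0.34, edgeR adjusted p = 0.583). No interval among these 5 genes reached beyond 0.34 above or 0.26 below 0.

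BC085271 (chr1:183205071-183206557, minus strand), a copy 97.3% identical to Set over 1424 bases, rose with Dox, to 6.66 and 9.33 CPM (41 and 46 counts), against 1.93 and 2.43 CPM without Dox (9 and 11 counts). Both Dox samples were above both samples without Dox, at a log2 difference of 1.86 (SE 0.41, edgeR adjusted p = 0.0190). Gm5789 (chr12:88066543-88067407, plus strand), 95% identical over 868 bases, had 17 and 12 counts with Dox, against 0 and 1 without (edgeR adjusted p = 0.0265). The ratio of its summed counts, scaled for depth, was 24.1 with an exact 95% counting interval of 3.99 to 982. Both calls were lost with the DESeq2 Wald test (adjusted p = 0.1096 for BC085271 and 0.256 for Gm5789). Leaving out each of the 4 KH2 samples gave edgeR adjusted p of 0.0047 to 0.246 for BC085271, called only without Dox sample 1. Gm5789 was called in none of the 3 such fits in which it passed the filter (edgeR adjusted p from 0.1095 to 0.320). Outside the Dox samples BC085271 reached at most 2.48 CPM and Gm5789 at most 0.975 CPM. Gm9531 stood at 100.4 and 119 CPM with Dox and 108 and 110.2 CPM without (log2 0.01, edgeR adjusted p = 0.984).

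Ordered by group mean, Set was highest in untreated WT of set 2 (1326 CPM), then in KH2 with Dox (1197), KH2 without Dox (992), WT of set 1 (961), WT after RA (579.9), KO1 of set 2 (541), KO2 of set 2 (334), KO after RA (241), KO2 of set 1 (21.2) and KO1 of set 1 (20.7). Ranges of neighbours overlapped between WT of set 2 and KH2 with Dox, between KH2 without Dox and WT of set 1, between KO2 of set 2 and KO after RA, and between both KO lines of set 1. For Anp32a the order was KH2 without Dox (373 CPM), KH2 with Dox (359), WT of set 2 (233), WT of set 1 (149.6), KO1 of set 2 (149.5), KO2 of set 2 (143), KO1 of set 1 (110.1), WT after RA (102), KO2 of set 1 (101) and KO after RA (92.3). The KH2 groups, WT of set 1 with both KO lines of set 2, and WT after RA with KO2 of set 1 and KO after RA overlapped or lay within each other's ranges. Levels of the separately titled sets and of the KH2 line were not tested against each other.

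Across the 19 samples, the genes most like each member in log2(CPM + 1) were found among 8710 genes averaging at least 10 CPM. For Set they were Fam3c (Pearson r = 0.946), Etnk1 (0.922) and Tyk2 (0.910). For Anp32a they were Pif1 (0.974), Cox6c (0.971) and Xrcc5 (0.970), and for Anp32b Psmb10 (0.966), Wdr43 (0.959) and Knop1 (0.956). For Anp32e they were Snhg5 (0.968), Rhebl1 (0.962) and Shmt1 (0.960), for Nap1l1 Gng3 (0.969), Ran (0.965) and Utp14a (0.965), and for Nap1l4 Arih2 (0.994), Gpbp1 (0.986) and Naa40 (0.981). Samples of a set share their lines, so these values describe the samples as grouped. No member was among the 3 genes most like another.

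Other genes of these pathways were followed between KO and WT as well. Of 21 other histone chaperones, 1 rose and 2 fell in KO over both sets, beside 10.4% of all genes called higher and 8.63% lower, with a list median of -0.12 beside -0.02 for all genes. Hira, which deposits a replacement form of histone H3, fell (log2 -0.76, SE 0.16, edgeR adjusted p = 0.00115), to 16.5 CPM in set 1 KO against 31.5 CPM in WT and 24.9 CPM in set 2 KO against 40.6 CPM in WT. Nasp, a chaperone of H3 with H4, fell (log2 -0.36, edgeR adjusted p = 0.00340), and Atrx, a chromatin remodeller that works with the chaperone DAXX, rose (log2 0.32, edgeR adjusted p = 0.0312). The Atrx call was lost with counts summed per line and set (edgeR adjusted p = 0.144) and without WT sample 1a (0.0744), WT sample 1b (0.208), KO2 sample 1e (0.0634) or KO2 sample 1f (0.0562).

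Of 10 genes for H2A.Z, the histone that ANP32E removes, and for its deposition, 8 were tested, of which 2 fell and 0 rose in KO over both sets, beside 8.63% of all genes called lower and 19.1% in either direction. They were H2afv, a gene for H2A.Z (log2 -0.37, edgeR adjusted p = 0.0124), and Ruvbl1, an ATPase of remodelling complexes (log2 -0.46, edgeR adjusted p = 0.00973). Both calls were lost with counts summed per line and set (edgeR adjusted p = 0.0660 for H2afv and 0.0512 for Ruvbl1), that of H2afv without WT sample 1b (0.0736) and that of Ruvbl1 without WT sample 2b (0.0723). EdgeR called none of 4 tested NAP-domain relatives, 3 tested partners of the SET complex or 4 PP2A core subunits over both sets. At an unadjusted edgeR p under 0.05 these lists counted 2, 0 and 0 genes, and the DESeq2 Wald test called 0 in each. Of the other histone chaperones, 2 rose and 0 fell within set 1, beside 7.19% of all genes called higher and 5.10% lower. Within set 2, 0 rose and 2 fell, beside 5.64% called higher and 3.55% lower. Each of those 4 calls was lost with at least 1 WT sample left out.

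With RA the histone chaperones moved mostly as the 6 genes did. In KO cells 14 of 21 fell and 3 rose, with a median of -0.66, and in WT cells 13 fell and 4 rose, with a median of -0.79. Among all genes 26.8% were called lower and 28.3% higher in KO, and 22.5% lower and 24.8% higher in WT. Nasp fell to 522 CPM in KO after RA, against 1318 CPM in untreated KO, and to 608 CPM in WT after RA, against 1692 CPM in untreated WT (log2 -1.45 in KO and -1.52 in WT). Hat1, an enzyme that acetylates new H4, fell by 1.46 on the log2 scale in KO and by 1.71 in WT, and Ncl, a nucleolar protein, fell by 1.29 in KO and by 1.41 in WT. Ptms, a small acidic protein, rose, to 256 CPM in KO after RA, against 84.4 CPM in untreated KO, and to 266 CPM in WT after RA, against 108 CPM in untreated WT.

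Of the H2A.Z list, 7 of 9 tested genes fell and 1, Vps72, rose in KO cells after RA, and 6 fell and 0 rose in WT cells, beside 26.8% of all genes called lower in KO and 22.5% in WT. The NAP-domain relatives went the other way, with 4 of 7 tested genes called higher and 0 lower in KO and in WT. Among all genes 28.3% were called higher in KO and 24.8% in WT. Nap1l2, a brain-expressed relative of Nap1l1, stood at 10.5 CPM in KO after RA, against 3.14 CPM in untreated KO, and 8.97 CPM in WT after RA, against 1.89 CPM in untreated WT (log2 1.48 in KO and 2.22 in WT, edgeR adjusted p = 0.00101 and 0.00179). On the log2 scale Tspyl1 rose by 0.90 in KO and 0.76 in WT, Tspyl3 by 1.77 in KO and 1.89 in WT, and Tspyl5 by 1.35 in KO and 1.13 in WT. Like Nap1l2, Tspyl3 and Tspyl5 were low in untreated WT of set 2, at 3.30 and 4.55 CPM, while Tspyl1 held 50.3 CPM. The WT call of Tspyl5 was lost with the DESeq2 Wald test (adjusted p = 0.184) and without WT sample 2b (edgeR adjusted p = 0.255), KO RA sample 2h (0.0523) or KO RA sample 2i (0.0516). Of 3 tested partners in the SET complex, Hmgb2 (log2 -1.33 in KO and -1.29 in WT) and Apex1 (-1.25 in KO and -1.75 in WT) fell in both genotypes, the KO call of Apex1 being lost without KO RA sample 2h (edgeR adjusted p = 0.0608). Of the PP2A core subunits, 2 of 4 fell in KO, where 26.8% of all genes were called lower, Ppp2ca by 0.27 and Ppp2r1b by 0.34, and 0 of 4 in WT, where 0 also passed at an unadjusted edgeR p under 0.05 or by the DESeq2 Wald test. The KO call of Ppp2ca was lost without KO RA sample 2h (edgeR adjusted p = 0.0877) or 2i (0.172), and that of Ppp2r1b without 2i (0.153).

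**Figure D5:**
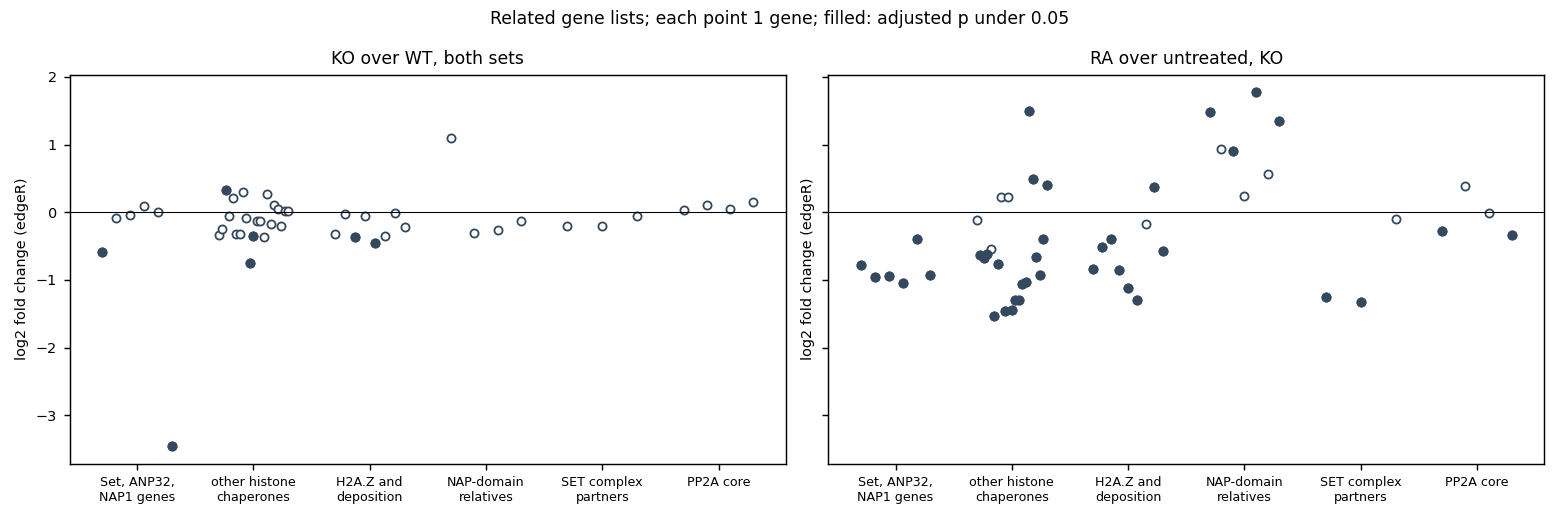
Log2 fold change (edgeR) of every tested gene of the 6 chaperone genes and of 5 related lists, for KO over WT in both sets and for RA over untreated cells in KO, with 1 point per gene and filled points at an adjusted p under 0.05. With RA the 6 genes and 14 of 21 other chaperones are filled below 0 and 4 of 7 NAP-domain relatives above 0. Among all genes 26.8% were called lower and 28.3% higher in that comparison. KO over WT shows 2 filled points among the 6 genes, the knocked-out gene Set and Anp32a.

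With Dox, 1 of 3 tested partners of the SET complex rose and 2 of 21 histone chaperones fell in KH2 cells, beside 0.896% of all genes called higher and 0.904% lower. EdgeR and the DESeq2 Wald test called 0 genes of the NAP-domain, PP2A and H2A.Z lists, of which 0, 1 and 4 had an unadjusted edgeR p under 0.05. Hmgb2, a DNA-bending protein, rose to 325 CPM with Dox, against 223 CPM without (log2 0.55, edgeR adjusted p = 0.0354). Ptma fell to 2235 CPM with Dox, against 3142 CPM without (log2 -0.49, edgeR adjusted p = 0.00792), and Ptms fell to 121 CPM with Dox, against 171 CPM without (log2 -0.50, edgeR adjusted p = 0.0275). With the DESeq2 Wald test the calls of Hmgb2 (adjusted p = 0.637) and Ptms (0.0643) were lost. Leaving out either sample without Dox ended all 3 calls (edgeR adjusted p from 0.0845 to 0.409), and leaving out Dox sample 1 ended those of Ptms (0.131) and Hmgb2 (0.492). Feeder marker sums were 547 to 665 CPM with Dox and 934 to 966 CPM without, and ESC marker sums 6150 to 6283 CPM with Dox and 5618 to 5625 CPM without. Their part in these changes was not tested.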

How the data were processed

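The deposited values are raw counts per gene of 3′ tags from 23 libraries, made with featureCounts on Ensembl gene models of GRCm38, per the file headers. Per the submitters' processing notes, the aligner was STAR 2.5.4b and the counter came from Subread 2.0.0. The default options leave out reads with several mappings and ignore strand. Anp32e, Nap1l1 and Nap1l4 each overlap 1 gene on their own strand, and no member overlaps a gene on the other strand. Of 55573 genes, 55394 had a symbol, and those without held at most 0.000662% of a library.

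Libraries of the same title code were summed, which gave 19 samples. Tests were quasi-likelihood F tests of edgeR 4.0.16 (R 4.3.3) after TMM scaling and filterByExpr, whose minimum count was 10 and minimum total 15, with robust fitting. P-values were adjusted by Benjamini-Hochberg over all genes tested. The SE is the log2 fold change divided by the square root of F. The 95% intervals of log2 values take the normal quantile times this SE, so they are somewhat narrower than the F test would give. KO over WT was fitted over both sets with set as a covariate and within each set. RA effects came from 1 fit of the 9 summed samples of set 2, where the untreated KO level is the mean over lines KO1 and KO2, so these comparisons share untreated samples with KO over WT in set 2. KH2 samples were fitted alone. Each fit was also run on simulated counts with known fold changes, whose outcome is not given here. Copies were searched with BLAST 2.17.0. Tables and figures used Python 3.11.15, pandas 2.3.3, numpy 2.4.6 and matplotlib 3.10.9.

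The members and lists were chosen with earlier results of these data known. All 6 members were named in every comparison, up to 4 called genes of each list with the smallest adjusted p could be named, and the 3 genes with the highest Pearson r were named for each member, leaving out predicted and unnamed genes. Alternatives were DESeq2 1.42.0 size factors, its Wald test, no filter on low counts, unsummed libraries, a block for the replicate number, counts summed per line and set, sub-batches of set 2, KO1 alone as the untreated KO, the first library of each title code, and leaving out each sample. The first-library choice and the sub-batch covariate were added after seeing the data. Counting intervals cover counting error only.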

Additional observations from a re-analysis of the deposited data

Results flagged for a closer look

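Anp32b in set 2 KO2 sample 2f, at 1620.4 CPM, stood apart from the other 3 set 2 KO samples, which held 1315 to 1357 CPM. Its gap to the next sample was 0.862 of the range of the 4. Of 12 groups of 4 KO samples examined, the 6 genes in 2 sets, 1 stood out in this way, and chance sets apart about 1 in 20. Sample 2f is the 1 KO sample of set 2 made of a sub-batch A library alone. KO libraries held 1417, 1663 and 1615 CPM of Anp32b in sub-batch A, the second from sample 2e and the third from 2f, and 1302, 1275 and 1220 CPM in sub-batch B. Sub-batch was itself assigned from these counts, and its part in this value was not tested. The same sample held the lowest Set level of set 2 KO, 273 CPM.

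The KO effect on Set differed between the sets, by 3.94 on the log2 scale (SE 0.33, edgeR adjusted p = 2.48e-06), with KO at 33.0% of the WT mean in set 2 and 2.18% in set 1. The identical-sequence copy Gm9531 also differed, by 2.81 (edgeR adjusted p = 0.0169). No source used here says whether KO1 and KO2 are the same clones in both sets, so clone and set cannot be told apart.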

How the results depend on the processing

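Of 1961 values recomputed under an alternative, 1749 stayed the same, 103 lost a call, 6 gained one, 43 changed sign and 60 counts moved. A log2 value stayed the same if it kept its direction and side of the threshold. A count of called genes stayed the same if it changed by at most 1.5 times, and moved if it changed by more or went from or to 0. No value that changed sign was called before or after. The cause of the changes below was not tested, beyond the fewer samples or genes that an alternative holds.

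Counts summed per line and set gave 1 of the 6 genes and 1426 genes called over both sets, against 2 and 2194. In set 2, against 2 of the 6 and 1165 genes, unsummed libraries gave 759 genes, unsummed libraries with the replicate block 454 genes and 2 of the 6 (Set -1.51, Anp32a -0.63), sub-batch A 0 and 434, and the first library of each title code 1 and 429. For the set 2 minus set 1 difference DESeq2's Wald test called 2 of the 6, against 1, and no low-count filter gave 171 genes, against 99. Between KO lines, no filter gave 25 genes in set 1, against 1, and 1 of the 6 and 22 genes in set 2, against 0 and 3, where unsummed libraries gave 1 gene. After RA, KO over WT gave 38 genes with the Wald test, 94 without the filter and, with unsummed libraries, 0 of the 6 and 8 genes, against 1 and 58. The RA effect in KO minus that in WT gave 67, 284 and 2 genes under those 3 alternatives, against 160. With Dox the Wald test called 93 genes and the replicate block 1 of the 6 (Set 0.27, edgeR adjusted p = 0.0366) and 724 genes, against 0 and 229.

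Same-numbered samples did not deviate together (r of 0.0507, -0.154 and -0.0753 in set 1 and 0.0628 in KH2, over 9012 genes). These values do not show that the numbers pair the samples, though 2 samples per group cannot settle it. The block ended the set 1 calls of Ptma and H2afv and, with unsummed libraries, the set 2 calls of Hira and Nasp, that of Hira being lost with unsummed libraries alone too, and no call of the 6 genes.

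Leaving out each sample in turn gave 2 of the 6 and 1553 to 2416 genes over both sets, 1 to 2 and 570 to 1388 in set 1, 1 to 2 and 195 to 2335 in set 2, and 1 and 22 to 127 for the difference between sets. It gave 0 and 1 to 196 between KO lines in set 1, 0 to 1 and 1 to 56 in set 2, 5 to 6 and 5558 to 7224 for RA in WT, and 6 and 6191 to 7919 for RA in KO. It gave 1 and 15 to 98 for KO over WT after RA, 0 and 27 to 388 for the RA difference between genotypes, and 0 and 6 to 234 for Dox.

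With a sample left out, the log2 ranges that crossed 0 were -0.10 to 0.024 (Anp32e) and -0.056 to 0.071 (Nap1l4) over both sets. In set 1 they were -0.093 to 0.066 (Anp32b), -0.20 to 0.16 (Anp32e), -0.22 to 0.17 (Nap1l4) and -0.098 to 0.38 (Gm4204), and in set 2 -0.027 to 0.0055 (Anp32e). For the set 2 minus set 1 difference they were -0.17 to 0.19 (Anp32e) and -0.11 to 0.28 (Nap1l4). Between KO lines they were -0.31 to 0.27 (Set), -0.15 to 0.086 (Anp32b) and -4.17 to 0.54 (Gm9531) in set 1, and -0.30 to 0.15 (Anp32a) and -0.017 to 1.01 (Gm4204) in set 2. For KO over WT after RA they were -0.13 to 0.023 (Anp32b) and -0.40 to 0.081 (Gm4204), and for the RA difference between genotypes -0.0029 to 0.55 (Set) and -0.0081 to 0.14 (Anp32b). For Dox they were -0.12 to 0.011 (Anp32a), -0.12 to 0.095 (Anp32b), -0.0027 to 0.086 (Nap1l1) and -0.12 to 0.13 (Gm9531).

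Other log2 values that changed sign were, with unsummed libraries, Nap1l4 over both sets (0.0019) and after RA (0.0057) and Anp32a between KO lines in set 2 (0.10). Without the filter they were Anp32b between KO lines in set 1 (0.0060) and Nap1l4 after RA (0.011). In set 2 they were Anp32b within sub-batch A (0.037), Nap1l4 within sub-batch B (-0.015) and Anp32e with first libraries (0.00086), and with KO1 alone the RA difference of Set (-0.049).

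The floor of 3 counts lay between 0.324 and 3.22 CPM in a sample, and from 1.87 CPM upward in set 1, which limits copies such as Gm9531 there.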
